A study of Homo sapiens with 6 samples.

Results

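The genes for the proteins of the mitochondrial ribosome were followed in HEK293 cells, a long established line grown from human embryonic kidney. The members were all rows of the gene table whose symbol reads MRPL or MRPS, a number and an optional letter A to C, which gave 78 of 57773 rows and 76 symbols, since MRPL30 and MRPS17 each stood on 2 rows. The 6 libraries fall into 3 labelled knockdown of TRDMT1, a methyltransferase of tRNA also called DNMT2, and 3 labelled control. No genotype difference other than TRDMT1, no treatment and no time is given in the labels, and they do not say how the knockdown was made or whether replicate libraries are separate cultures. The p-values therefore reflect differences among these 6 libraries only, and part of that spread may be technical.

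The mitochondrial ribosome, or mitoribosome, translates the few messenger RNAs encoded by mitochondrial DNA, which specify core subunits of the respiratory chain and the ATP synthase. Its ribosomal RNAs come from mitochondrial DNA, while all of its proteins are encoded in the nucleus, made in the cytosol and imported. MRPL names mark proteins found in the large subunit, which joins amino acids, and MRPS names proteins found in the small subunit, which reads the messenger RNA. There are exceptions: MRPS18A and MRPS30 sit in the large subunit, and MRPS36 is now known as a subunit of the α-ketoglutarate dehydrogenase complex. Some of the proteins have bacterial counterparts and the others are additions of the mitochondrial ribosome.

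TRDMT1 (ENSG00000107614) goes against the labels, so groups are named as labelled throughout. Every direction given here rests on those labels: were they swapped, each member given as lower would be higher by the same amount, and MRPL49 would be lower. The knockdown-labelled libraries held 221, 225 and 245 counts of it and the control-labelled ones 99, 93 and 80, or 5.74 ± 0.02 against 3.76 ± 0.86 CPM (SD, n = 3). CPM are counts per 1000000 library counts, after the library totals were scaled by TMM. The log2 fold change was 0.61 ± 0.21 (SE), not past the threshold in edgeR's quasi-likelihood fit (adjusted p = 0.0705), and the adjusted p ran from 0.00189 to 0.202 over the other fits. A two-sided exact permutation test of its log2(RPKM + 1) values reached p = 0.1, the least possible with 3 libraries a group. Libraries held 24776040 to 40088993 counts. Control replicate 2 stood apart, with a TMM factor of 0.812 against 0.997 to 1.07 in the other 5 libraries. All 8 markers listed for HEK293 were detected in every library, and markers of other cell types summed to 3.74 to 5.78 CPM on the plain library total.

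Members differed widely in level per length. In RPKM, the count scaled by library total and exonic length, MRPS34 stood highest, at 197, 216 and 219 in the knockdown-labelled libraries and 165, 257 and 143 in the control-labelled ones. MRPS34 is a small-subunit protein without a bacterial counterpart. It was followed by MRPS26 (mean over 6 libraries 101 RPKM), MRPL51 (94.1), MRPL41 (81.5) and MRPL37 (80.8). Every library of MRPS34 lay above every library of MRPS26, whereas MRPS26, MRPL51 and MRPL41 overlapped with their neighbours in that order. Among symbols with one well counted row, MRPS18C (4.84 RPKM), MRPL46 (5.31) and MRPS22 (7.09) stood lowest. The order of levels across members was kept between libraries labelled knockdown (Spearman rho 0.993 to 0.996 over 74 members) and was looser between control replicate 2 and the knockdown-labelled libraries (0.878 to 0.885). These correlations are across genes, which share libraries and are not independent replicates.

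Mitoribosomal genes were more often lower than higher in the knockdown-labelled libraries. Of the 74 rows that passed the filter on low counts, 23 were called lower, 1 was called higher and 50 were not called (edgeR's quasi-likelihood test, Benjamini-Hochberg over 17805 genes, threshold 0.05). The lower calls made up 31.1% of tested members, beside 14.7% of all genes tested, and the higher call 1.35%, beside 9.29%. The median log2 fold change of the members was −0.53, with 64 negative and 10 positive values, while the median over all genes was −0.04. Adjusted p of the lower calls ran from 0.00189 to 0.0464. In 41 members every library labelled knockdown lay below every library labelled control, which held for 26% of all genes, and in 1 member they all lay above, which held for 23.9%. In bulk RNA, less RNA per cell and fewer cells with the RNA cannot be told apart.

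**Figure D1:**
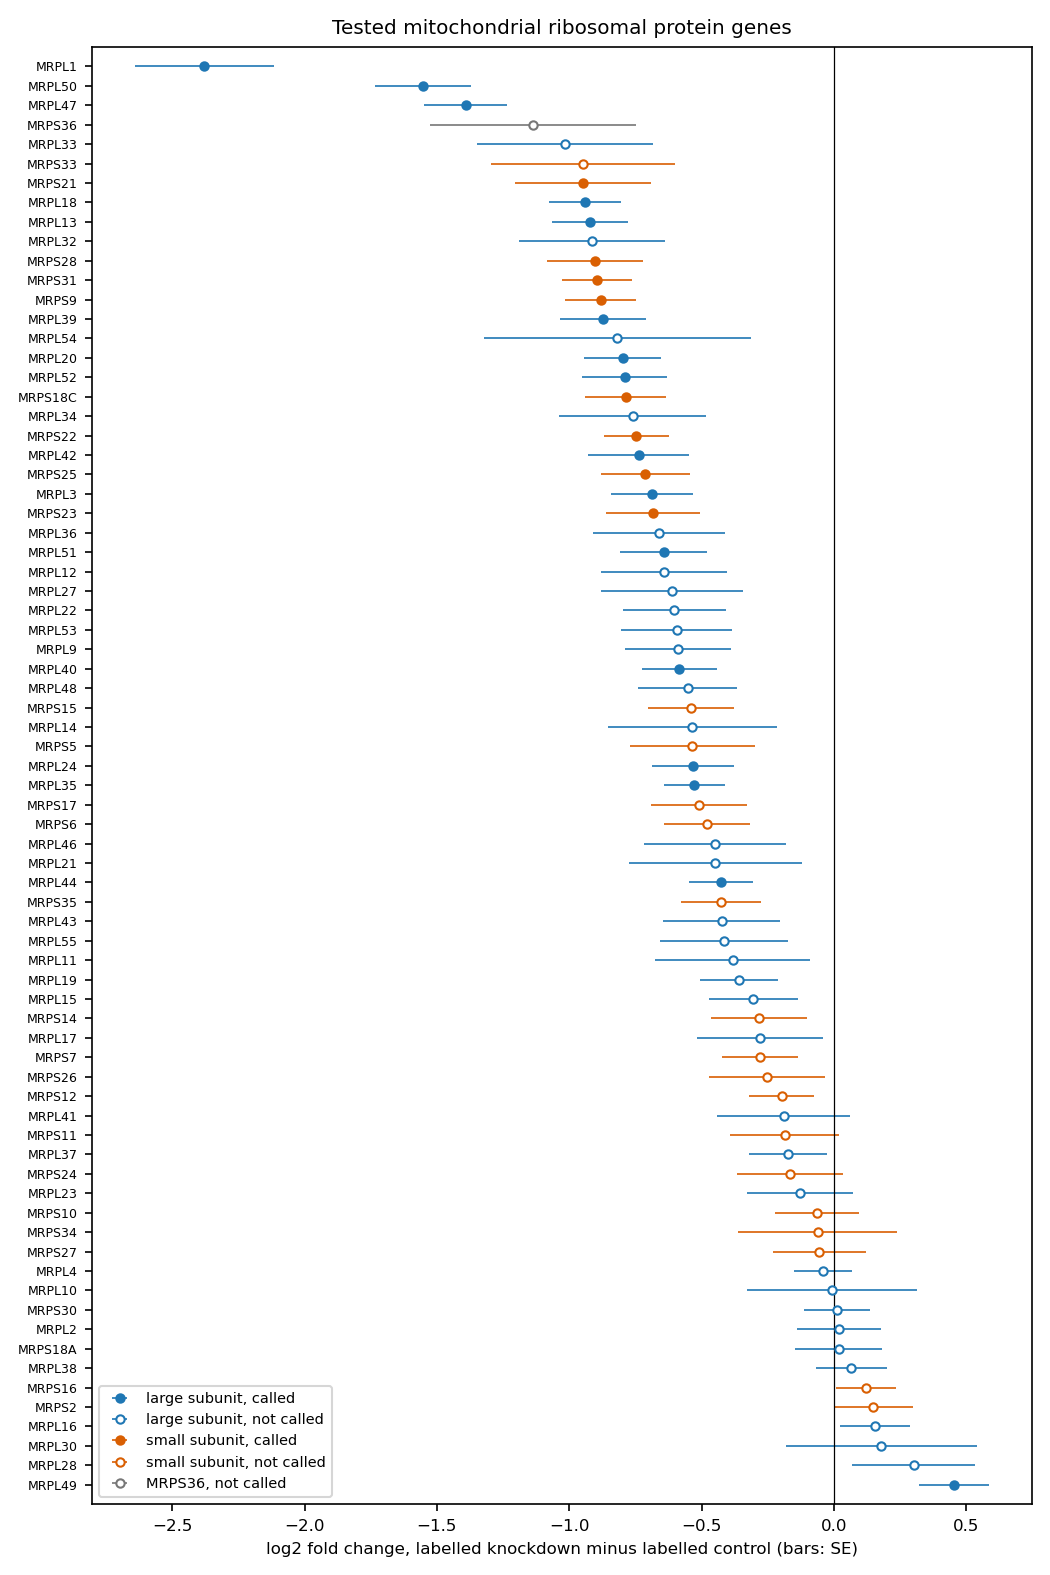
Log2 fold changes (labelled knockdown minus labelled control) of the 74 tested members, in order, with bars for the standard error; filled points passed the threshold and colours mark the subunit. MRPL1, MRPL50 and MRPL47 stand at the low end and MRPL49 at the high end.

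The largest falls were in the large subunit. MRPL1 (ENSG00000169288, chromosome 4) forms the stalk beside the site from which spent tRNA leaves. It had 5.88, 7.35 and 5.87 CPM in the knockdown-labelled libraries and 29.8, 45.6 and 24.1 CPM in the control-labelled ones. The groups were far apart, and the level was 5.20-fold lower in the knockdown-labelled libraries (log2 fold change −2.38 ± 0.26, adjusted p = 0.00189, edgeR). MRPL50 (ENSG00000136897, chromosome 9), a large-subunit protein without a bacterial counterpart, had 16.1, 17.8 and 15.3 CPM against 47.1, 58.7 and 38.8 CPM. It was 2.94-fold lower, again without overlap (−1.55 ± 0.18, adjusted p = 0.00226, edgeR). MRPL47 (ENSG00000136522, chromosome 3) sits at the exit of the tunnel through which the new protein leaves. Its level was 21.5, 22.6 and 20.9 CPM against 61.8, 63.0 and 45.9 CPM, 2.62-fold lower (−1.39 ± 0.16, adjusted p = 0.00200, edgeR). These were the only 3 called members at or below −1 on the log2 scale. MRPS36 (−1.14 ± 0.39) and MRPL33 (−1.02 ± 0.33) also lay there and were not called.

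Among the next large-subunit genes, MRPL18, a protein of the central protuberance, was the most even within groups. It had 62.5, 62.2 and 61.4 CPM in the knockdown-labelled libraries and 134, 123 and 100 CPM in the control-labelled ones (−0.94 ± 0.14, adjusted p = 0.00468, edgeR). MRPL13, which has a bacterial counterpart, had 32.6, 33.3 and 29.6 CPM against 68.9, 60.4 and 51.5 CPM (−0.92 ± 0.14). MRPL39, which has none, had 41.6, 39.7 and 38.4 CPM against 89.4, 61.7 and 68.1 CPM (−0.87 ± 0.16). In all of these genes the groups did not overlap, and for MRPL18, MRPL13 and MRPL39 the highest control library was replicate 1, not replicate 2.

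In the small subunit, 4 genes were among the 10 called members with the largest falls. MRPS21, with a bacterial counterpart, had 37.0, 35.5 and 34.9 CPM in the knockdown-labelled libraries and 65.5, 96.0 and 45.7 CPM in the control-labelled ones (−0.95 ± 0.26). Its control libraries were spread widely, and its adjusted p was 0.0375 (edgeR). MRPS28 had 15.9, 17.6 and 15.3 CPM against 29.8, 37.2 and 24.3 CPM (−0.90 ± 0.18). MRPS31, an addition of the mitochondrial ribosome, had 17.3, 15.7 and 15.7 CPM against 32.4, 31.0 and 27.0 CPM (−0.90 ± 0.13). MRPS9, whose bacterial counterpart reaches the tRNA held at the peptidyl site, had 40.3, 40.3 and 39.4 CPM against 78.5, 80.1 and 62.4 CPM (−0.88 ± 0.13, adjusted p = 0.00554, edgeR). The libraries labelled knockdown lay below all control libraries in each of the 4.

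**Figure D2:**
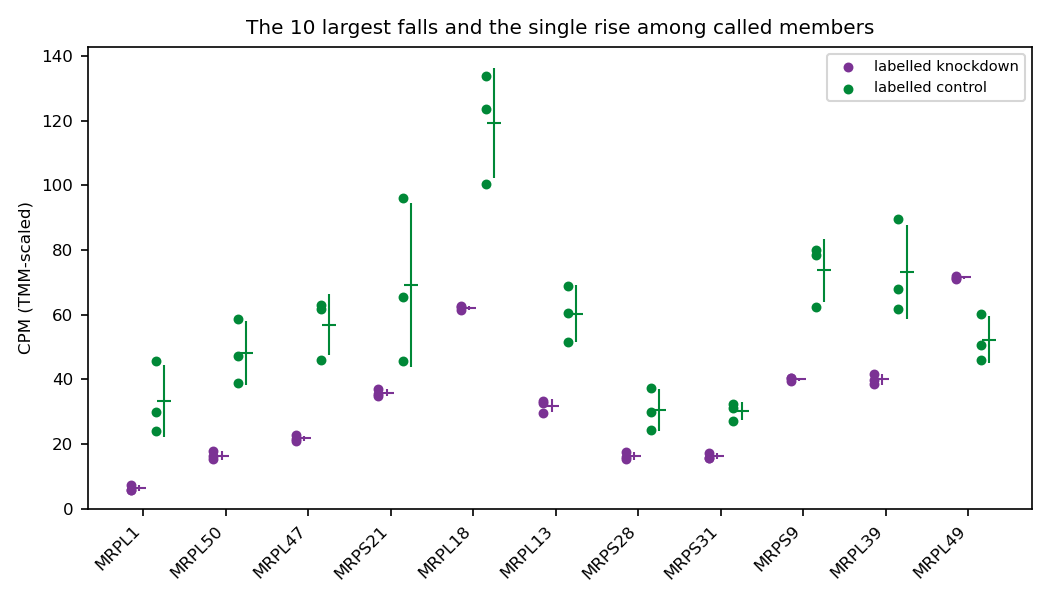
TMM-scaled CPM in each library for the 10 called members with the largest falls and for MRPL49; points are libraries, dashes with bars are the mean and SD of 3. The control libraries are spread more widely, and the groups do not overlap for any of the 11 genes.

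The other 13 members called lower were 1.35-fold to 1.74-fold lower. They were MRPL20 (−0.80 ± 0.15), MRPL52 (−0.79 ± 0.16), MRPS18C (−0.79 ± 0.15), MRPS22 (−0.75 ± 0.12), MRPL42 (−0.74 ± 0.19), MRPS25 (−0.71 ± 0.17) and MRPL3 (−0.69 ± 0.15). To these came MRPS23 (−0.68 ± 0.18), MRPL51 (−0.64 ± 0.17), MRPL40 (−0.58 ± 0.14), MRPL24 (−0.53 ± 0.16), MRPL35 (−0.53 ± 0.12) and MRPL44 (−0.43 ± 0.12). MRPL3 and MRPL24 belong to the conserved core of the large subunit, while MRPS22, MRPS23 and MRPS25 have no counterpart in bacteria.

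MRPL49 (ENSG00000149792, chromosome 11), a large-subunit protein without a bacterial counterpart, was the single member called higher. It had 71.1, 71.3 and 72.1 CPM in the knockdown-labelled libraries and 50.4, 60.3 and 45.9 CPM in the control-labelled ones, without overlap. The level was 1.37-fold higher (0.45 ± 0.13, adjusted p = 0.0475, edgeR), and the adjusted p ran from 6.66e-05 to 0.169 over the other fits. The call was lost without any one of the libraries except control replicate 2. In GENCODE release 29 the gene overlaps SYVN1 on the opposite strand by 5189 bases, and SYVN1 had 86.8 to 93.5 CPM in the knockdown-labelled libraries and 26.1 to 29.4 CPM in the control-labelled ones. No source used here gives the strand setting of the counting, so reads of MRPL49 and SYVN1 cannot be told apart, and the value of MRPL49 is uncertain. MRPL40, MRPS25 and MRPS18C, among others, also overlap a gene on the opposite strand in that annotation.

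Both subunits held genes called lower. The counts below stand beside 14.7% called lower and 9.29% called higher over all genes tested. Of 48 tested large-subunit members 15 were called lower and 1 higher, with a median log2 fold change of −0.53. Of 25 tested small-subunit members 8 were called lower, with a median of −0.48. Proteins with a bacterial counterpart counted 12 lower of 46 (median −0.52), and those without counted 11 lower and 1 higher of 27 (median −0.55). No difference between these groups was tested.

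Several members had fold changes near 0. MRPS30, which sits in the large subunit, had 57.2, 66.6 and 67.9 CPM in the knockdown-labelled libraries and 67.1, 64.3 and 58.8 CPM in the control-labelled ones (0.01 ± 0.12). MRPS12, a protein of the decoding centre, had a log2 fold change of −0.20 ± 0.12, and MRPS34 of −0.06 ± 0.30, neither past the threshold. MRPL10, at the base of the stalk that binds translation factors, had −0.01 ± 0.32, also not called. MRPL10 had 58.6 and 57.6 CPM in control replicates 1 and 3 but 131 CPM in control replicate 2, while its libraries labelled knockdown stood at 80.5, 80.7 and 85.0 CPM. MRPL12, in the arms of that stalk, was further from 0: it had 58.1, 67.1 and 68.4 CPM against 92.0, 138 and 71.9 CPM, without overlap, and was not called (−0.64 ± 0.24, adjusted p = 0.0928, edgeR). Its adjusted p ran from 0.00194 to 0.263 over the other fits.

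Control replicate 2 carried much of the spread. It was the highest library for 59 of 74 members (79.7%), against 33.5% of all genes. The members together made 4461, 4682 and 4572 CPM in the knockdown-labelled libraries and 5800, 7474 and 4840 CPM in the control-labelled ones. These sums did not overlap, but control replicate 3 lay just above the knockdown-labelled libraries. Scaled to the plain library total, the sums were 4724, 4975 and 4875 against 5776, 6063 and 4968 CPM, and overlapped. The coefficient of variation of a member was 4.06% in the knockdown-labelled libraries, 21.8% in the control-labelled ones and 13.5% in control replicates 1 and 3 (medians over tested members).

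**Figure D3:**
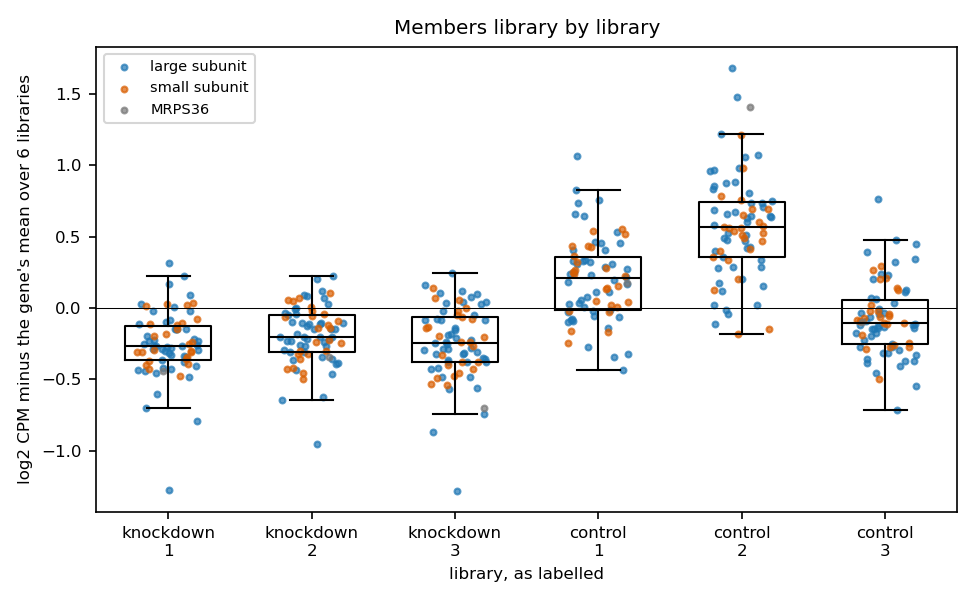
Log2 CPM of each tested member minus its mean over the 6 libraries; points are genes coloured by subunit, boxes span the quartiles with the median as a line, and whiskers reach 1.5 times the box. Control replicate 2 lies highest, and control replicate 3 lies nearest to the knockdown-labelled libraries.

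Without control replicate 2 the family still leaned lower, with a median nearer to no change, though some members moved further from it. Then 39 of 75 members were called lower (52%), beside 25.6% of all genes, and 6 were called higher (8%), beside 22.9%. The median log2 fold change was −0.31, against −0.53 with all 6 libraries. All 23 lower calls were kept, and MRPL49 was joined among the higher calls by MRPL10, MRPL16, MRPL28, MRPS2 and MRPS34. MRPL28, which has a bacterial counterpart, then stood at 0.62, against 0.30 ± 0.23 with all libraries. Leaving out knockdown replicate 1, 2 or 3 left 7, 8 and 7 lower calls. Leaving out control replicate 1 left 11, and leaving out control replicate 3 gave 41. Over all genes, calls in either direction then numbered 1246, 1315, 1191, 2044 and 5417 in the same order, against 4267 with all 6 libraries. MRPL1, MRPL13, MRPL18, MRPL47, MRPL50, MRPS9 and MRPS31 were called lower in each of these 6 fits.

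Members poor in G and C had the lower fold changes. Sorted by the GC content of the longest transcript, the lowest 24 members (33.5% to 43.2% GC) counted 12 lower, with a median log2 fold change of −0.74. Other protein-coding genes in that range were called lower in 36.4% and had a median of −0.43. The middle 25 members (43.3% to 52.3% GC) counted 7 lower and 1 higher (median −0.51), beside 10.4% lower and a median of −0.01 in other genes. The highest 24 members (52.7% to 71.9% GC) counted 3 lower (median −0.33), beside 3.78% lower and a median of 0.21. In each range the members' median lay below that of the other genes. Across 73 members Pearson's r of GC content and log2 fold change was 0.44 (Spearman's rho 0.45), and across protein-coding genes it was 0.40 (0.43). These correlations are across genes, which share libraries.

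**Figure D4:**
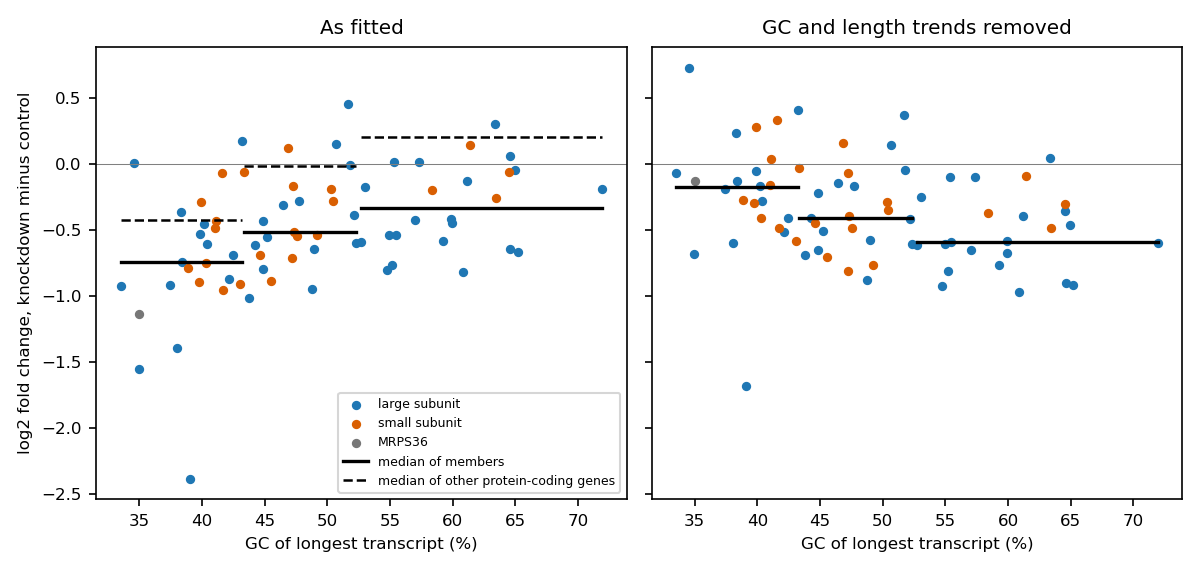
Log2 fold change of the members (labelled knockdown minus labelled control) against the GC content of their longest transcript, as fitted and with GC and length trends removed; solid lines are medians of members in 3 GC ranges and dashed lines, at left, those of other protein-coding genes. The order of the 3 member medians turns between the panels.

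With smooth trends in GC content and length taken out of each library, 22 of 73 members were called lower (30.1%), beside 13.3% of all genes, and 2 higher (2.74%), beside 8.64%. Of the 23 lower calls 14 were kept, and 8 were gained, among them MRPL12, MRPL4 and MRPL41. The median was −0.39, beside −0.07 for all genes. The order by GC turned: the medians of the same GC ranges became −0.17, −0.41 and −0.59. MRPL1 stood at −1.68, MRPL50 at −0.68 and MRPL47 at −0.60, all still called, while MRPL13 stood at −0.07. MRPS30, with a GC content of 34.5%, joined MRPL49 among the higher calls at 0.73. MRPS21 had no GC value and was not in that fit. In every fit that was run, MRPL1, MRPL18, MRPL47, MRPL50 and MRPS9 were called lower.

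The other 4 of the 78 rows did not pass the filter on low counts. MRPS18B was listed at 0 counts in every library. PPP1R10, which overlaps it on the opposite strand in GENCODE release 29, was listed at 0 in every library too, so whether this place was counted at all is not known and no limit on its level is given. MRPL45 had 2 counts in all, while a pseudogene of it, MRPL45P2, had 1093, and reads of these could be split by the counting. The second rows of MRPL30 and MRPS17 had 18 and 44 counts over 6 libraries. The first row of MRPL30, which shares its place with other genes, had 0.254 to 0.448 CPM (0.18 ± 0.36, not called). Pseudogenes of the members held 0.132% to 0.177% as many counts as the members. MRPS18A and MRPS18C, relatives of MRPS18B, stood at 0.02 ± 0.16 (not called) and −0.79 ± 0.15 (called).

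The share called lower among other genes of mitochondrial translation varied by list, beside 14.7% of all genes. Of 7 further mitoribosome proteins 1 was called lower (14.3%), PTCD3, a small-subunit RNA-binding protein (−0.63 ± 0.11). Of 25 genes for assembly and modification of mitochondrial ribosomal RNA, 3 were called lower (12%) and 1 higher (4%, beside 9.29% of all genes). They were MTERFD1 (−1.44 ± 0.19), which acts in large-subunit assembly, FASTKD2 (−1.18 ± 0.15), MALSU1 (−0.61 ± 0.15), a large-subunit assembly factor, and the GTPase MTG2 (0.52 ± 0.15). Of 14 translation factors and mRNA partners, 5 were called lower (35.7%). Among these were SLIRP (−1.29 ± 0.16) and LRPPRC (−0.72 ± 0.12), which bind and stabilise mitochondrial messenger RNA, the initiation factor MTIF2 (−0.87 ± 0.16), and the release factor MTRF1 (−0.77 ± 0.17). These counts moved with the fit. Without control replicate 2 the lower calls of the lists, in the same order, numbered 4, 8 and 10, beside 25.6% of all genes. The higher calls then numbered 0, 4 and 2, beside 22.9%. With voom and quality weights the lower calls numbered 7, 11 and 11, in a fit that called 10214 of 17805 genes in either direction.

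Of 15 tested genes for mitochondrial transcription and RNA processing, 4 were called lower (26.7%, beside 14.7% of all genes). TRMT10C, a subunit of mitochondrial RNase P, had 8.83, 9.30 and 9.29 CPM in the knockdown-labelled libraries and 46.2, 39.3 and 38.7 CPM in the control-labelled ones (−2.18 ± 0.13). TEFM, an elongation factor (−1.53 ± 0.16), FASTKD1 (−1.27 ± 0.12) and the exoribonuclease PNPT1 (−0.76 ± 0.17) were the others. Among 15 genes of mitochondrial DNA, whose RNAs the mitoribosome contains or translates, the only call was MT-ATP8, which was higher (1.27 ± 0.33). That is 6.67% of these genes, beside 9.29% of all genes. The ribosomal RNAs MT-RNR1 and MT-RNR2 were not called, and ribosomal RNA had been depleted.

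Among genes of the nuclear-encoded respiratory chain the counts were 16 lower and 1 higher of 74 tested with a median of −0.49. Among those of the cytosolic ribosome they were 3 lower of 78 tested, with a median of −1.07. The lower calls made up 21.6% of the respiratory chain and 3.85% of the cytosolic ribosome, beside 14.7% of all genes. Of all genes 9.29% were called higher. Control replicate 2 was the highest library for all 78 tested genes of the cytosolic ribosome. Without it 36 of these were called lower (46.2%, beside 25.6% of all genes), 6 were called higher (7.69%, beside 22.9%) and the median was −0.24. In the same fit 37 of the 74 genes of the respiratory chain were called lower and 6 higher, beside the same shares of all genes. Like that of the members, the lower share of the respiratory chain thus lay above that of all genes in both fits. No difference between these lists was tested.

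**Figure D5:**
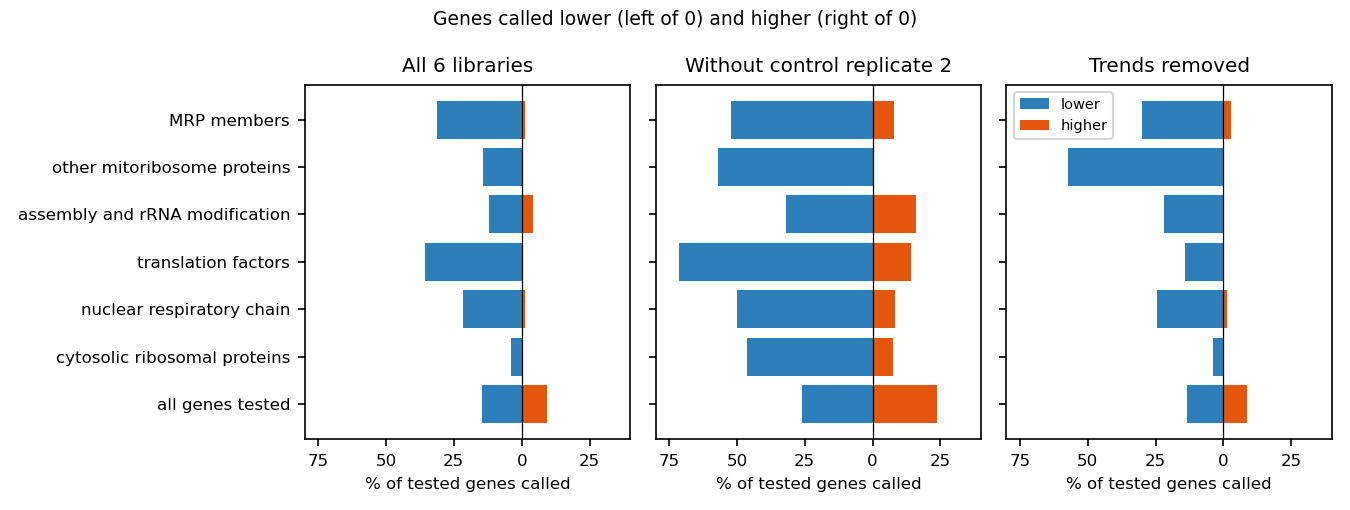
Percent of tested genes called lower (left of 0) and higher (right of 0) in the members, related lists and all genes, with all 6 libraries, without control replicate 2 and with GC and length trends removed. The members keep a larger lower share than all genes in the 3 panels, as do the translation factors and the nuclear respiratory chain. The lower bars of the cytosolic ribosomal proteins and of the other mitoribosome proteins are among those that grow without control replicate 2.

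Members lie on many chromosomes, and several share a start region with a neighbour. All 4 tested members on chromosome 3, MRPL3, MRPL47, MRPS22 and MRPS25, were called lower, where the median of protein-coding genes was −0.29. None of 7 on chromosome 11 was called lower and MRPL49 was called higher, where the median of protein-coding genes was 0.31. Over all genes 14.7% were called lower and 9.29% higher. Chromosomes 5, 7 and 19 held 5, 4 and 4 tested members, none called, with member medians of −0.60, −0.71 and −0.48. Both of 2 on chromosome 4 were called lower. These chromosomes were not named in advance, and no difference between chromosomes was tested. In GENCODE release 29, 27 members start within 1000 bases of a protein-coding gene that runs the other way. Of 25 such pairs with both genes tested, 13 had log2 fold changes of the same sign. Both genes were called lower in MRPL47 and NDUFB5, a complex I subunit, in MRPL18 and TCP1, a chaperonin subunit, and in MRPL13 and MTBP. In 4 pairs the member was called lower and the neighbour was not called. In another 4 the neighbour was called higher and the member was not called, as for MRPL21 and IGHMBP2.

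The sequences before the starts of these genes are shown because promoters of nuclear genes for mitochondrial proteins often carry sites for NRF1, GABP (an ETS factor) and YY1. RefSeq (GRCh38.p14) gave the 250 bases before the start for 67 of 76 member symbols. The 3 genes with the largest falls and the single rise are given 5′ to 3′ on the gene's strand, with capitals for matches to the ETS core CCGGAAGT, the YY1 core AAGATGGC or the NRF1 core GCATGCGC on either strand.
MRPL1, chr4:77862580-77862829, plus strand: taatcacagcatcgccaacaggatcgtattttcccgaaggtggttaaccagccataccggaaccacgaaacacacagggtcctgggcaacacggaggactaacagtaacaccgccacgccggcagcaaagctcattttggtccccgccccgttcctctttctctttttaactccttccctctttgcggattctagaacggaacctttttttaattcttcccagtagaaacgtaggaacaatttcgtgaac
MRPL50, chr9:101398619-101398868, minus strand: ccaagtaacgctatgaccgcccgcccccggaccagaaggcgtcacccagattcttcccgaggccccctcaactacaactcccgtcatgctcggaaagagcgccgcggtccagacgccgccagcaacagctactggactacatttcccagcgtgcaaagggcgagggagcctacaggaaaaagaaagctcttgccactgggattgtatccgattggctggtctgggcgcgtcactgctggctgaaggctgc
MRPL47, chr3:179604639-179604888, minus strand: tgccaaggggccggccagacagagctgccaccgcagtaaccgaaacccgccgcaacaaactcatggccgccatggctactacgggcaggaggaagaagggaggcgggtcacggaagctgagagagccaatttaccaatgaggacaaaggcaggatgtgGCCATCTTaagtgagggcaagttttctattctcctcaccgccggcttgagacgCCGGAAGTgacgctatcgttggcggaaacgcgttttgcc
MRPL49, chr11:65121933-65122182, plus strand: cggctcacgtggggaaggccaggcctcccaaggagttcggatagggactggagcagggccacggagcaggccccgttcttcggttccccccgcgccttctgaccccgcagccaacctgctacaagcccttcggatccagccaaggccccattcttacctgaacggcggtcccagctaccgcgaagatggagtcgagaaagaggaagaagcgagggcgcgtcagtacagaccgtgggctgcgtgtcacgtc

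MRPL47 held an ETS core 39 bases and a YY1 core 92 bases before the start, whereas MRPL1, MRPL50 and MRPL49 held none of the 3 cores in this window. The ETS core was in 9 of 67 member windows (13.4%), against 3.64% of 27305 windows of that length for all genes and 5.09% of 15843 for protein-coding genes. The NRF1 core was in 6 (8.96%, against 2.81% and 3.70%), the YY1 core in 5 (7.46%, against 1.37% and 1.39%) and CCAAT in 19 (28.4%, against 33.0% and 34.5%), each counted on both strands. Of 20 windows of members called lower 5 held the ETS core, and of 44 of members not called 4 did. The same counts were 2 and 3 for the NRF1 core, 2 and 3 for the YY1 core, and 7 and 12 for CCAAT. No difference between these counts was tested. The stretches around the ETS cores are given for the 5 members called lower, with the core in capitals and up to 15 bases on either side.
MRPL20, chr1:1407315-1407352, minus strand: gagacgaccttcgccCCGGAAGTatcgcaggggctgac
MRPL3, chr3:131502981-131503018, minus strand: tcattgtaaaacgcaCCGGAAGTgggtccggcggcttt
MRPL47, chr3:179604655-179604692, minus strand: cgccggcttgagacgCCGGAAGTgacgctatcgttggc
MRPL51, chr12:6493360-6493397, minus strand: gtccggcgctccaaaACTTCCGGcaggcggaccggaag
MRPS22, chr3:139343899-139343936, plus strand: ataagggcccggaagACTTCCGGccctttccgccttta

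The 4 members with the core that were not called are shown for comparison, MRPL27 with 2 cores.
MRPL27, chr17:50373214-50373251, minus strand: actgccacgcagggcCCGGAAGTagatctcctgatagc
MRPL27, chr17:50373185-50373207, minus strand: agaaacttttcgagaCCGGAAGT
MRPL38, chr17:75905071-75905108, minus strand: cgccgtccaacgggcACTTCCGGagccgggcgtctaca
MRPL53, chr2:74472730-74472767, minus strand: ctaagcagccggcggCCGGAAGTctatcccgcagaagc
MRPS34, chr16:1773135-1773169, minus strand: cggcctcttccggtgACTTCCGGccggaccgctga

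The core lay between 8 and 209 bases before the start, at 32, 39, 44, 80 and 120 bases in the members called lower. GABPA, the DNA-binding subunit of GABP, had 14.5, 21.9 and 20.5 CPM in the knockdown-labelled libraries and 57.9, 24.8 and 64.6 CPM in the control-labelled ones. Control replicate 2 lay close to the knockdown-labelled libraries there, and GABPA was called lower (−1.37 ± 0.36, adjusted p = 0.0341, edgeR). Over all genes 14.7% were called lower. Levels of NRF1, YY1 and the other subunit of GABP are not given here, so GABPA stands as a single gene. Whether GABPA bears on the members was not tested, and a match is a description of letters and not a bound site.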

How the data were processed

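Total RNA libraries from HEK293 cells were made, per the labels' protocols, after depletion of ribosomal RNA, using an RNA bisulfite kit and then a stranded kit for total RNA. Whether the table comes from bisulfite-treated libraries, and the aligner, annotation and strand setting, were not stated in any source used here. For every gene the deposited table gave a read count that the authors had not normalized. It also held RPKM values, which the authors had scaled by exonic length and library total. Build hg19 and, without roles, edgeR 3.4.6, DESeq 1.18.0, DESeq2 1.6.3, HTSeq 0.6.1, bcl2fastq 2.17.1.14 and StringTie 1 are named, per the submitters' processing notes. Columns were tied to samples by the second name in each description. Samples labelled knockdown carry the name 293C and those labelled control 293TK, so names and labels seem to point in opposite directions, and which is right cannot be told apart here.

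The test was that of edgeR 4.0.16 under R 4.3.3 (quasi-likelihood F test, TMM, filterByExpr, robust), with Benjamini-Hochberg adjustment over 17805 genes and a threshold of 0.05. Fold changes are labelled knockdown minus labelled control, ± SE, and CPM are given as mean ± SD over 3 libraries. Alternatives were DESeq2 1.42.0, limma 3.58.1 on log2(RPKM + 1) with a pseudocount of 1 and a mean RPKM of at least 0.5, voom with quality weights, other scalings, no filter, a replicate block, each library left out, and trends in GC content and length removed (mgcv 1.9.3, GC known for 97.2% of genes). Only the main edgeR fit was also run on simulated counts. Those had the same spread in both groups, whereas here the control-labelled libraries are spread more widely, so that run does not cover this case. Replicates differed beyond sampling noise and were each counted once. Promoter coordinates are GRCh38.p14, while the counts were made on hg19. No protein sequences were used here.

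Members and lists were chosen with earlier results of these data known. Named were TRDMT1, every called member (values per library for the 10 largest rises and falls), the members of highest and lowest RPKM, those under 10 counts in every library, and at most 4 called genes per direction in each related list. Called genes of the respiratory chain and cytosolic ribosome lists are given as counts. Other members and neighbours were named after their values were seen.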

Additional observations from a re-analysis of the deposited data

How the results depend on the processing

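The number of libraries limits the precision, and the counts of calls moved with nearly every library left out. Over all genes 4267 passed the threshold, against 10214 with voom and quality weights and 1191 to 9063 when one library was left out. Members called lower numbered 23, against 15 with the plain library total, 46 with voom and quality weights and 7 to 41 when one library was left out. Members called higher numbered 1, against 5 with voom and quality weights, 0 with the replicate block, 2 with trends removed and 0 to 6 when one library was left out. The plain library total moved the median of all genes from −0.04 to 0.13 and that of the members from −0.53 to −0.32, so that both moved by a similar amount. By limma on log2(RPKM + 1) the members' median was −0.28 and that of all genes in that fit 0.11. That scale shrinks low values and rests on the plain library total. The members' median was −0.31 to −0.67 when one library was left out. In no fit that was run did a called member change sign.

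TRDMT1, at 0.61, passed the threshold with the plain library total (0.80), DESeq2 (0.64), voom (0.66) and trends removed (1.07), and lay between 0.45 and 0.79 when one library was left out, past the threshold only without control replicate 2. Deviations of same-numbered libraries from their group means correlated at −0.04, 0.06 and 0.001 across genes. These values show no pairing by number, but they cannot exclude that same-numbered libraries were handled together. With the replicate block 22 members were called lower, 20 of them the same genes, and 2976 genes were called in all.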
